A study of Rattus norvegicus with 4 samples.

Results

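The semaphorins, plexins and neuropilins are the ligands and receptors of an axon guidance system, and this account follows their transcripts in rat cortical neurons given topotecan. The genes were taken by name from the deposited count table: every semaphorin of classes 3 to 7, every plexin, Nrp1, Nrp2 and the plexin domain containing genes Plxdc1 and Plxdc2. The rule found 31 of 21648 genes, 20 of them semaphorins, 7 plexins, 2 neuropilins and 2 plexin domain containing genes. All but 2 of the 31 had at least 40 summed counts. Any family member outside the table was not analysed here.

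The cells were cortical neurons of rat embryos of day 18 from a commercial supplier, plated in STEMdiff medium and moved 24 hours later to BrainPhys medium with SM1. One group received DMSO, the solvent, and the other topotecan, an inhibitor of topoisomerase I given to lower the expression of long genes. Each group had 2 libraries of total RNA, and neither the dose nor the length of treatment is given by the labels. Nothing in the labels ties the libraries to separate cultures, so p-values reflect only how far these samples scatter, and that scatter may be technical.

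Semaphorins share a propeller-shaped sema domain and tell growing axons where to turn, stop or branch. Class 3 members are secreted and mostly need a neuropilin to reach an A-type plexin. Classes 4, 5 and 6 are transmembrane proteins, and class 7 is held by a lipid anchor. Plexins carry the signal into the cell through a domain that switches off small GTPases of the Ras and Rap group, and the growth cone's actin and microtubules change in turn. In the cortex the system is known for steering axons, for neuronal migration and for pruning of spines.

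The 4 libraries held between 22957786 and 31181382 counts, of which the 31 genes took 0.0463% and 0.0496% in DMSO and 0.0337% and 0.0358% in topotecan. Levels are given as counts per 1000000 library counts after TMM scaling (CPM), which are not corrected for transcript length, so levels are compared between libraries and not between genes. Pan-neuronal markers were high in every library, with summed levels of 23045 and 21235 CPM in DMSO and 24636 and 25770 CPM in topotecan. Over all 12162 genes tested by edgeR, 23.5% were lower and 16.2% higher, the shares to set beside each marker count here. Of 11 tested pan-neuronal markers 3 were lower, 4 were higher and 4 did not pass. Of 10 glutamatergic neuron markers 1 was lower and 6 were higher, from summed levels of 676 and 689 CPM in DMSO to 1192 and 1196 CPM in topotecan. Most of the rise of this sum lay in Neurod6, which went from 340 and 367 CPM to 829 CPM in both topotecan libraries. Of 10 tested interneuron markers 3 were lower and 4 higher, with summed levels of 545 and 499 CPM in DMSO and 738 and 631 CPM in topotecan. The rise of this sum lay in Sst, which went from 106 and 80.4 to 335 and 317 CPM. Gad1 went the other way, from 179 and 159 to 132 and 118 CPM. These neuronal values also lie beside every result below, and their part was not tested. Glial markers were present in DMSO and lower in topotecan, by unequal amounts. All 13 astrocyte markers were lower, summing to 6383 and 6492 CPM in DMSO and 538 and 580 CPM in topotecan. Glul alone made up 423 and 453 CPM of the topotecan sums, and the median log2 fold change of the list was -7.23. All 12 oligodendrocyte lineage markers were lower, from 4059 and 4367 to 136 and 123 CPM, and Sox10 was at 0 in both topotecan libraries. Of 8 tested radial glia and progenitor markers 7 were lower, and Hes1 did not pass (log2 fold change 0.50, edgeR adjusted p = 0.16). The summed levels of this list went from 1519 and 1610 to 22.1 and 22.4 CPM. Slc1a3, which is also on the astrocyte list, made up 1148 and 1263 CPM of the DMSO sums. Hes5, at 0 in both topotecan libraries, had only 5 and 3 reads in DMSO and was not tested. All 6 dividing cell markers were lower, from 81.1 and 76.9 to 6.98 and 9.04 CPM. Some of these markers, Gfap, Pax6, Olig2 and Sox10 among them, had at most 3 reads in either topotecan library. They passed the low-count filter only through DMSO, so their place among the tested genes came from the group where they are higher. Microglia markers summed to less than 1 CPM in every library. In bulk RNA, fewer cells of a type and less RNA per cell cannot be told apart. These glial values come from the same topotecan libraries as every result below, and their part in those results was not tested.

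Many of these guidance genes were lower in topotecan, and few were higher. Of 31 genes 29 passed the low-count filter, and of these 13 were lower in topotecan, 2 were higher and 14 did not pass the test (edgeR, p adjusted over all genes by Benjamini-Hochberg, threshold 0.05). Across all 12162 genes tested, 23.5% were lower and 16.2% were higher. The median log2 fold change was -0.30 over the 29 genes and -0.01 over all genes. In 16 of the 29 both topotecan libraries lay below both DMSO libraries, in 8 they lay above, and in 5 the groups overlapped, where 36.9% and 33.7% of all genes lay below and above. Falls with a fitted size of 2-fold or more were called for 6 of the 29, all named below, against 13.1% of all genes, and no rise reached 2-fold, which 1.27% of all genes did. Sema5b had both of its passing libraries in DMSO, so its place among the tested genes came from the group where it is higher. Sema3d had 2 passing libraries in DMSO and 1 in topotecan.

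Summed levels of the ligands were lower in topotecan, and those of the neuropilins were not. Summed over the 20 semaphorins, levels were 291 and 305 CPM in DMSO and 198 and 214 CPM in topotecan, so the groups did not overlap. Much of this fall lay in 4 genes, by their DMSO and topotecan means. These were Sema5a (42.1 to 7.73 CPM), Sema6a (26.8 to 9.96), Sema6d (40.4 to 24.4) and Sema3d (13.1 to 0.331). The class 4 semaphorins alone overlapped, at 90.3 and 80.3 CPM in DMSO and 75.6 and 88.3 CPM in topotecan. The 7 plexins summed to 134 and 150 CPM in DMSO and 114 and 116 CPM in topotecan. The neuropilins summed to 25.0 and 24.4 CPM in DMSO and 24.6 and 26.8 CPM in topotecan, with overlapping groups. As log2 ratios of the group means these were -0.54, -0.30 and 0.06, and the difference between the classes was not tested. An exact permutation test of 2 libraries against 2 cannot go below p = 0.333. Scaled to short neuronal genes the ratios were -0.81, -0.58 and -0.22, so the neuropilin sum changed direction.

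**Figure D1:**
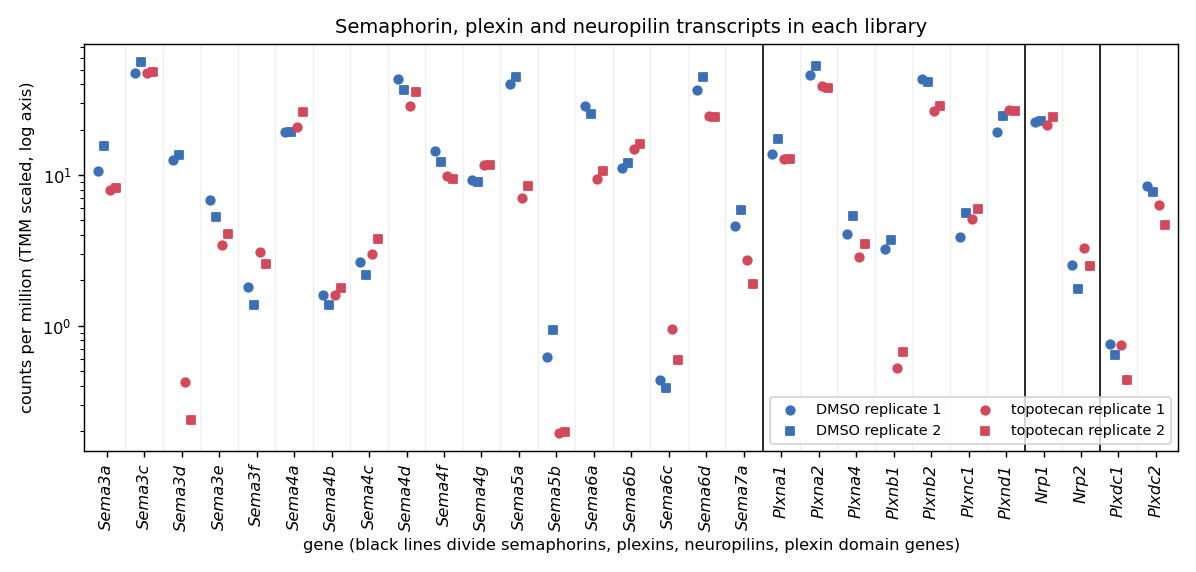
Level of each gene with at least 40 summed counts (CPM on a log axis) in the 2 DMSO libraries (blue) and the 2 topotecan libraries (red), by gene class. Sema3d stands at 12.6 and 13.5 CPM in DMSO and 0.424 and 0.238 CPM in topotecan, while Nrp1 stays between 21.3 and 24.3 CPM.

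Among the secreted class 3 ligands, Sema3d fell far more deeply than its relatives. Sema3d (ENSRNOG00000007202), a secreted cue studied in axon guidance and in the development of heart and vessels, stood at 12.6 and 13.5 CPM in DMSO and 0.424 and 0.238 CPM in topotecan. The DMSO libraries were high and both topotecan libraries were very low, with 348 and 315 reads counted against 13 and 6. Its log2 fold change was -5.25 (SE 0.26, edgeR adjusted p = 1.5e-09). Summed counts gave a 38.3-fold lower level, with an exact 95% counting interval from 24.3 to 64.0, which covers counting error only.

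Sema3a (ENSRNOG00000023337), the classical repellent of cortical axons, lies next to Sema3d in the RefSeq annotation of GRCr8, with no other protein-coding gene between them. Its level was 10.6 and 15.6 CPM in DMSO and 7.99 and 8.17 CPM in topotecan. The groups did not overlap, and the DMSO libraries lay farther apart than the topotecan ones. Sema3a was lower by a log2 fold change of -0.69 (SE 0.18, edgeR adjusted p = 0.0091). Without DMSO replicate 2 its log2 fold change was -0.39 and the call was lost (edgeR adjusted p = 0.085). Sema3e (ENSRNOG00000006631), which can bind Plxnd1 without a neuropilin, stood at 6.85 and 5.27 CPM in DMSO and 3.43 and 4.08 CPM in topotecan. It fell by 0.70 (SE 0.20, edgeR adjusted p = 0.015). The Sema3e call was lost without DMSO replicate 1 (-0.48), without topotecan replicate 1 (-0.57) and with DESeq2 (-0.68, adjusted p = 0.057).

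Sema3c (ENSRNOG00000006526), known as an attractant for cortical axons, lies on the same chromosome. There are 4 protein-coding genes between it and Sema3e, and 12 more between Sema3e and Sema3a. It stood at 47.1 and 55.7 CPM in DMSO and 47.1 and 48.1 CPM in topotecan. The groups overlapped, and the log2 fold change of -0.11 had a 95% interval from -0.34 to 0.12 (edgeR adjusted p = 0.46). It was 0.015 without DMSO replicate 2, and -0.39 with a call when scaled to short neuronal genes (adjusted p = 0.035). As a share of all semaphorin counts Sema3c went from 16.2% and 18.2% in DMSO to 23.8% and 22.5% in topotecan, and Sema3d from 4.33% and 4.42% to 0.215% and 0.111%. Sema3f (ENSRNOG00000017704), a ligand of Nrp2, was low throughout, at 1.81 and 1.37 CPM in DMSO and 3.07 and 2.58 CPM in topotecan. It was 1.77-fold higher (log2 fold change 0.82, SE 0.26, edgeR adjusted p = 0.024). This call was lost without DMSO replicate 2 (0.64), without topotecan replicate 1 (0.68), with DESeq2 (0.84, adjusted p = 0.11) and when scaled to short neuronal genes (0.56). Sema3b had between 5 and 10 counts in each library and Sema3g between 0 and 3, too few to test.

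The RefSeq promoters of Sema3d and Sema3c are shown because these class 3 ligands of the same chromosome changed so unequally. Each is 300 bases, from 250 before to 50 after the annotated start, in build GRCr8 on the minus strand, at chr4:23460922-23461221 for Sema3d and chr4:18699578-18699877 for Sema3c. Capitals mark matches on either strand to one of 4 motifs. These are TATAAA for the TATA box, the bare letters CCAAT, then GGGCGG for the GC box, and CACGTG as the E-box.
Sema3d: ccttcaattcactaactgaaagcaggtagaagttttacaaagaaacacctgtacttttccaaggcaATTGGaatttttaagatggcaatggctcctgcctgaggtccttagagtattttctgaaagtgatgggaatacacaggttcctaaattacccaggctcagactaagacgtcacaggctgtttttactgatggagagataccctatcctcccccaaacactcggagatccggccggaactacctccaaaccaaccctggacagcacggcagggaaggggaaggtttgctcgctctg
Sema3c: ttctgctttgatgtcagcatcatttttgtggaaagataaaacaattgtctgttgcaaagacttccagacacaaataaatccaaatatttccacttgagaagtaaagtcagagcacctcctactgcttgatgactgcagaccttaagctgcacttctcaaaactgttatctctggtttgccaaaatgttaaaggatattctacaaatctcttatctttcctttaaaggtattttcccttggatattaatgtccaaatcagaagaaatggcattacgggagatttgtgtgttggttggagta
The Sema3d window is 47.3% G and C with 6 CG dinucleotides and 1 CCAAT match, and the Sema3c window is 36.3% with 1 CG and no match. Over all 27457 promoters in the table the median was 52.3% with 7 CG, and 14.3% held the TATA letters, 37.7% CCAAT, 34.9% the GC box and 6.65% the E-box. Of the 21 family promoters in the table none held the TATA letters, 5 CCAAT, 12 the GC box and 2 the E-box. A match describes letters in this window and no more.

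Of the 6 transmembrane class 4 genes, Sema4f was the only one called. Sema4f (ENSRNOG00000006784) stood at 14.5 and 12.1 CPM in DMSO and 9.82 and 9.36 CPM in topotecan. The groups did not overlap, and the log2 fold change was -0.47 (SE 0.15, edgeR adjusted p = 0.023). The call was lost with DESeq2 (-0.46, adjusted p = 0.061), without DMSO replicate 1 (-0.33) and without topotecan replicate 1 (-0.51) or replicate 2 (-0.44). Sema4d (ENSRNOG00000013679), the ligand of Plxnb1 and known also from oligodendrocytes, stood at 43.0 and 36.4 CPM in DMSO and 28.8 and 35.6 CPM in topotecan. The log2 fold change of -0.30 did not pass, with a 95% interval from -0.58 to -0.03 (edgeR adjusted p = 0.079). It passed without DMSO replicate 2 (-0.42), without topotecan replicate 2 (-0.46) and when scaled to short neuronal genes (-0.57). It was -0.17 without DMSO replicate 1 (adjusted p = 0.29) and -0.16 without topotecan replicate 1 (adjusted p = 0.55).

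The other 4 genes of class 4 had log2 fold changes above 0, and none passed. Sema4a (ENSRNOG00000019737), known also from immune cells, stood at 19.3 CPM in both DMSO libraries and 20.8 and 26.2 CPM in topotecan (log2 fold change 0.28, edgeR adjusted p = 0.12). Sema4g stood at 9.25 and 8.95 CPM in DMSO and 11.6 CPM in both topotecan libraries (0.35, adjusted p = 0.073). Sema4c, a ligand of Plxnb2, went from 2.65 and 2.18 to 3.0 and 3.77 CPM (0.47, adjusted p = 0.13). Sema4b stayed between 1.37 and 1.78 CPM (0.18, adjusted p = 0.65), and its log2 fold change was -0.080 when scaled to short neuronal genes.

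The class 5 semaphorin Sema5a fell by more than 2-fold, and the rare Sema5b had a wide interval. Sema5a (ENSRNOG00000011977), a transmembrane guidance cue with thrombospondin repeats that cells of the oligodendrocyte lineage are also known to make, stood at 39.8 and 44.5 CPM in DMSO and 6.98 and 8.49 CPM in topotecan. The groups lay far apart and replicates were close. The log2 fold change was -2.45 (SE 0.14, edgeR adjusted p = 6.9e-09), and summed counts gave a 5.47-fold lower level with a counting interval from 4.93 to 6.09. Its share of semaphorin counts went from 13.7% and 14.6% to 3.53% and 3.97%. Sema5b (ENSRNOG00000002238), its close relative, was rare, with 17 and 22 reads in DMSO against 6 and 5 in topotecan. For Sema5b it was -1.94 (SE 0.52, 95% interval -3.07 to -0.82, edgeR adjusted p = 0.0096), so a fall of less than 2-fold lies within the error. The Sema5b call was lost without DMSO replicate 2 (-1.62, adjusted p = 0.077) and with DESeq2 (-1.97, adjusted p = 0.078).

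The class 6 semaphorins, transmembrane ligands of A-type plexins, went in both directions. Sema6a (ENSRNOG00000004033), a ligand of Plxna2 and Plxna4, stood at 28.5 and 25.2 CPM in DMSO and 9.33 and 10.6 CPM in topotecan. The groups were well apart, and Sema6a had a log2 fold change of -1.43 (SE 0.14, edgeR adjusted p = 1.7e-06). Sema6d (ENSRNOG00000004812), a ligand of Plxna1, stood at 36.6 and 44.3 CPM in DMSO and 24.7 and 24.2 CPM in topotecan. It fell by 0.73 (SE 0.12, edgeR adjusted p = 0.00033), again with no overlap.

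Sema6b (ENSRNOG00000045998), another class 6 ligand, stood at 11.1 and 12.1 CPM in DMSO and 14.9 and 15.9 CPM in topotecan. It was 1.33-fold higher (log2 fold change 0.42, SE 0.14, edgeR adjusted p = 0.029). That call was lost without DMSO replicate 1 (0.36), without topotecan replicate 1 (0.46) or replicate 2 (0.37), with DESeq2 (0.43, adjusted p = 0.055) and when scaled to short neuronal genes (0.14). Sema6c had 12 and 9 reads in DMSO against 29 and 15 in topotecan, and its log2 fold change of 0.91 had a 95% interval from -0.07 to 1.90 (edgeR adjusted p = 0.13). Counts of Sema6a per count of Sema6b were 2.57 and 2.09 in DMSO and 0.626 and 0.664 in topotecan, so the more counted gene of this pair changed. Such ratios within a library need no scaling between libraries. The pairs were chosen after their values were seen.

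Sema7a (ENSRNOG00000007687), the lipid-anchored member that binds Plxnc1 and the beta-1 integrin, stood at 4.60 and 5.82 CPM in DMSO and 2.71 and 1.90 CPM in topotecan. Both topotecan libraries lay below both DMSO libraries. Its log2 fold change was -1.16 (SE 0.23, edgeR adjusted p = 0.0014). Its receptor gene Plxnc1 (ENSRNOG00000007970) stood at 3.88 and 5.57 CPM in DMSO and 5.09 and 5.95 CPM in topotecan, with overlapping groups. The Plxnc1 log2 fold change of 0.23 had a 95% interval from -0.22 to 0.68 (edgeR adjusted p = 0.42). It was -0.050 when scaled to short neuronal genes and -0.0066 without DMSO replicate 1. Counts of Sema7a per count of Plxnc1 were 1.19 and 1.05 in DMSO and 0.532 and 0.320 in topotecan.

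**Figure D2:**
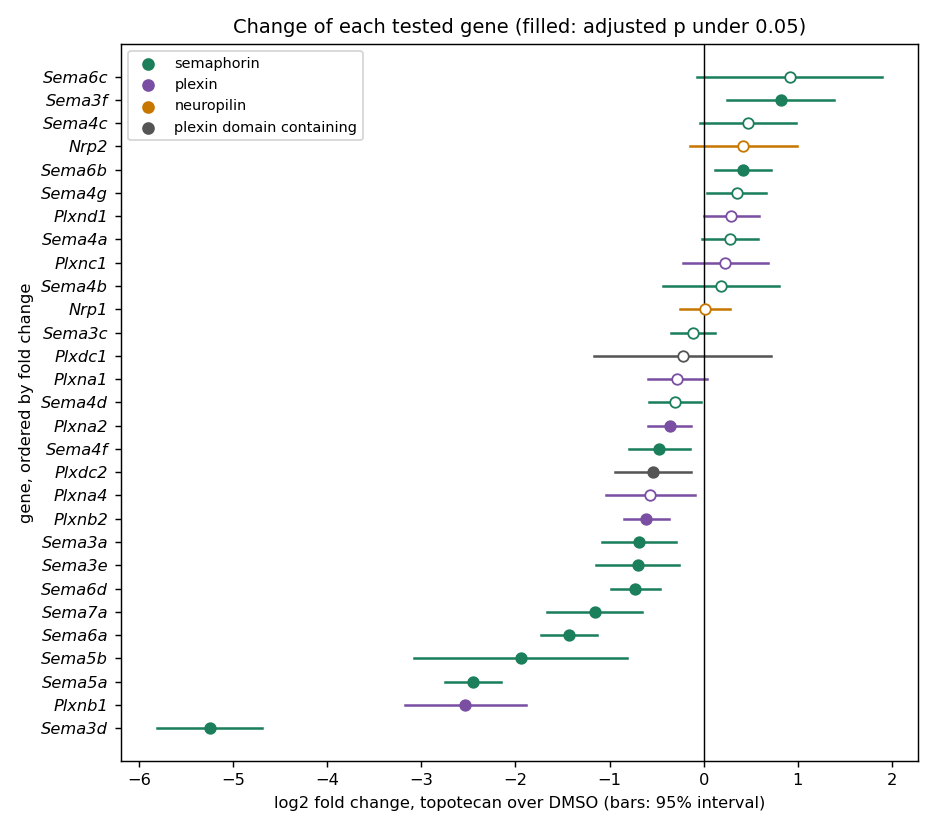
Log2 fold change of each of the 29 tested genes, topotecan over DMSO, with 95% intervals, coloured by class and filled where the adjusted p was under 0.05. Sema3d lies at -5.25, Plxnb1 at -2.53 and Sema5a at -2.45, and the filled points above 0 are Sema3f and Sema6b, whose calls were lost when scaled to short neuronal genes.

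Among the receptors, Plxnb1 fell most. Plxnb1 (ENSRNOG00000029510), the receptor of Sema4d that acts on RhoA, stood at 3.23 and 3.68 CPM in DMSO and 0.522 and 0.674 CPM in topotecan. It had 89 and 86 reads in DMSO against 16 and 17 in topotecan, so the groups were far apart. The log2 fold change was -2.53 (SE 0.30, edgeR adjusted p = 1.4e-05), and summed counts gave a 5.82-fold lower level with a counting interval from 3.99 to 8.71. Plxnb2 (ENSRNOG00000007133), its relative known from neural progenitors, stood at 43.2 and 41.1 CPM in DMSO and 26.7 and 28.7 CPM in topotecan. It fell by 0.61 (SE 0.11, edgeR adjusted p = 0.00058). Counts of Plxnb1 per count of Plxnb2 were 0.0747 and 0.0896 in DMSO and 0.0196 and 0.0235 in topotecan, so Plxnb1 changed more than its relative within the same libraries. The exact counting intervals ran from 0.0596 to 0.112 over the DMSO libraries and from 0.0111 to 0.0379 over the topotecan libraries.

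The promoters of the B-type plexins are shown as a pair of relatives that fell by different amounts, in build GRCr8 at chr8:118622911-118623210 on the plus strand for Plxnb1 and chr7:122137899-122138198 on the minus strand for Plxnb2. Capitals mark the same 4 motifs as above, and here all are GC boxes.
Plxnb1: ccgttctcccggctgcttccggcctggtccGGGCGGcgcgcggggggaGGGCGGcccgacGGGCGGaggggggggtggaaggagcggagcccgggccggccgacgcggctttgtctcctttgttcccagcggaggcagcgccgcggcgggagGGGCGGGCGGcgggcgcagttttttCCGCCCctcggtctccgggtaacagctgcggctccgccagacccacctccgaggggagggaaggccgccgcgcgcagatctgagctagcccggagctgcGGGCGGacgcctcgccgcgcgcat
Plxnb2: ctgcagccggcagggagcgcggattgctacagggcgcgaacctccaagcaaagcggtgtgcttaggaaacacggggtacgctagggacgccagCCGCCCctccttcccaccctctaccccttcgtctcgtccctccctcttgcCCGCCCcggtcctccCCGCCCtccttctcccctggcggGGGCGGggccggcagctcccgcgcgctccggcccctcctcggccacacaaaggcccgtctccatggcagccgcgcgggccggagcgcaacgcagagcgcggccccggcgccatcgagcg
The Plxnb1 window is 77.3% G and C with 45 CG dinucleotides and 7 GC box matches, of which 2 overlap. The Plxnb2 window is 73.7% with 36 CG and 4 matches.

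The A-type plexins, the signalling partners of neuropilins, showed small changes. Plxna2 (ENSRNOG00000007324) stood at 46.3 and 52.5 CPM in DMSO and 39.1 and 37.7 CPM in topotecan. It was at 0.778 of its DMSO level (log2 fold change -0.36, SE 0.11, edgeR adjusted p = 0.016). The call was lost without topotecan replicate 1 (-0.39, adjusted p = 0.080) and without topotecan replicate 2 (-0.34, adjusted p = 0.13). Plxna4 (ENSRNOG00000013072) stood at 4.06 and 5.31 CPM in DMSO and 2.84 and 3.49 CPM in topotecan. Its log2 fold change of -0.57 just missed the threshold (95% interval -1.04 to -0.09, edgeR adjusted p = 0.055). It passed without DMSO replicate 1 (-0.74), with no count filter (-0.55) and when scaled to short neuronal genes (-0.84). It was -0.37 without DMSO replicate 2 (adjusted p = 0.29), -0.42 without topotecan replicate 1 (adjusted p = 0.30) and -0.55 with DESeq2 (adjusted p = 0.19).

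Plxna1 stood at 13.8 and 17.3 CPM in DMSO and 12.7 and 12.8 CPM in topotecan, and its log2 fold change of -0.28 did not pass (edgeR adjusted p = 0.15). Without DMSO replicate 1 it was -0.42 and passed (adjusted p = 0.022), as it did when scaled to short neuronal genes (-0.56), and without DMSO replicate 2 it was -0.11 (adjusted p = 0.60). Plxnd1, the receptor of Sema3e, stood at 19.1 and 24.6 CPM in DMSO and 26.8 and 26.7 CPM in topotecan. The log2 fold change of 0.29 did not pass (edgeR adjusted p = 0.10), but without DMSO replicate 2 it was 0.48 and passed (adjusted p = 0.0038). It was 0.13 without DMSO replicate 1 (adjusted p = 0.41) and 0.014 when scaled to short neuronal genes (adjusted p = 0.96).

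The neuropilins, which bind secreted semaphorins and also vascular growth factors, showed no called change. Nrp1 (ENSRNOG00000010744), the binding partner of Sema3a, stood at 22.5 and 22.7 CPM in DMSO and 21.3 and 24.3 CPM in topotecan. The groups overlapped, and the log2 fold change of 0.01 had a 95% interval from -0.25 to 0.28 (edgeR adjusted p = 0.94). It was -0.26 when scaled to short neuronal genes and -0.081 without topotecan replicate 2, with no call in either case. Nrp2 (ENSRNOG00000031232), the binding partner of Sema3f, stood at 2.54 and 1.76 CPM in DMSO and 3.26 and 2.50 CPM in topotecan. Its log2 fold change of 0.42 had a 95% interval from -0.15 to 0.99 (edgeR adjusted p = 0.23), so a change of nearly 2-fold lies within the error.

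Plxdc1 and Plxdc2 share a plexin-like region but are not guidance plexins. Plxdc2 (ENSRNOG00000000142) stood at 8.41 and 7.67 CPM in DMSO and 6.33 and 4.68 CPM in topotecan. It fell by 0.54 (SE 0.19, edgeR adjusted p = 0.034), and the call was lost without DMSO replicate 1 (-0.46), without topotecan replicate 2 (-0.35) and with DESeq2 (-0.53, adjusted p = 0.097). Plxdc1 had between 11 and 23 counts in each library, with a log2 fold change of -0.22 and a 95% interval from -1.16 to 0.71. Without topotecan replicate 2 it was 0.089.

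**Figure D3:**
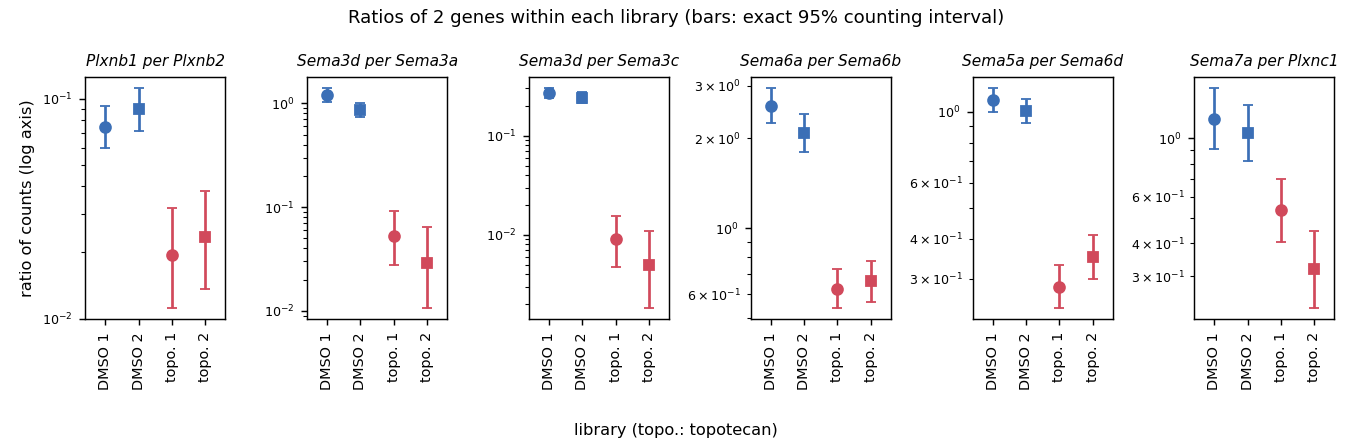
Ratio of the counts of 2 genes within each library (log axis), for 6 pairs chosen after their values were seen, with exact 95% counting intervals. In every pair both topotecan libraries (red) lie below both DMSO libraries (blue), as for Sema3d per Sema3a at 1.20 and 0.865 in DMSO and 0.0531 and 0.0291 in topotecan.

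Ratios within a library placed the neighbours Sema3d and Sema3a side by side without any scaling. Counts of Sema3d per count of Sema3a were 1.20 and 0.865 in DMSO and 0.0531 and 0.0291 in topotecan. Sema3d and Sema3a were thus counted about equally in DMSO, and Sema3d was the rarer of them in topotecan. Counts of Sema5a per count of Sema6d, both long genes that fell, were 1.09 and 1.0 in DMSO and 0.283 and 0.351 in topotecan. A ratio shows unequal change and not that the second gene was unchanged.

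Since topotecan was given to lower long genes, fold changes were set beside gene span, the length of the gene, introns included, in RefSeq. Of the 31 genes 15 span 100 kb or more, and all 15 were tested. Of these 9 were lower and none higher by edgeR (median log2 fold change -0.57), where 43.5% of all genes of that span were lower and 6.11% higher. At an unadjusted p under 0.05 the count of higher genes was also 0 by edgeR, DESeq2 and limma-voom. DESeq2 called 6 of the 15 lower, beside 2381 of all 12162 genes tested. The DESeq2 share among all genes of that span was not computed. Of the 14 tested genes under 100 kb, 4 were lower and 2 higher (median 0.23), where 20.1% of all such genes were lower and 18.5% higher. Across the 29 genes span and log2 fold change had a Spearman's rho of -0.53, and -0.51 without Sema3d, against -0.28 across 11772 genes. Genes of 1 library set share their depth and are not replicates, so no p is given.

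Genes of like span differed in their log2 fold changes. Sema6d, the longest at 593 kb, fell by 0.73, while Sema3d at 189 kb fell by 5.25. Sema3a (470 kb), Plxna4 (442 kb), Sema5a (431 kb) and Plxdc2 (425 kb) are of like span, and their log2 fold changes were -0.69, -0.57, -2.45 and -0.54. Plxnb1 at 25.5 kb and Sema7a at 22.7 kb are short genes with log2 fold changes of -2.53 and -1.16, and Nrp1 (155 kb) and Sema3c (164 kb) are long genes with no call.

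**Figure D4:**
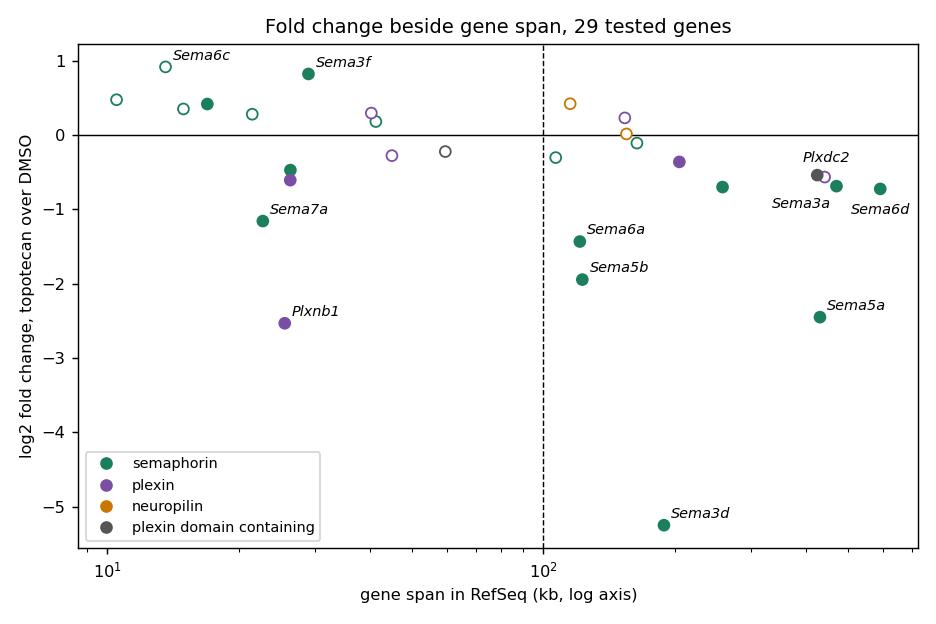
Log2 fold change, topotecan over DMSO, of the 29 tested genes beside their span in RefSeq (kb, log axis), with a dashed line at 100 kb and filled points where the adjusted p was under 0.05. Of the 15 genes at or beyond the line 9 were called lower, and Plxnb1 (25.5 kb) and Sema7a (22.7 kb) are low points to its left.

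Partners of the system outside these families were followed with lists of co-receptors and of intracellular effectors. Of 8 tested co-receptor genes 4 were lower, 1 was higher and 3 did not pass (median log2 fold change -1.01), where 23.5% of all genes were lower and 16.2% higher. Itgb1, the beta-1 integrin through which Sema7a acts on axons, stood at 59.8 ± 4.22 CPM in DMSO and 14.9 ± 0.0466 CPM in topotecan (SD, n = 2 each) with a log2 fold change of -2.01 (SE 0.11, edgeR adjusted p = 6.9e-09). Nrcam, an adhesion protein that joins neuropilin complexes, stood at 239 ± 31.8 and 106 ± 2.61 CPM and fell by 1.17 (SE 0.10). Chl1, of the same L1 family, stood at 171 ± 21.3 and 171 ± 3.06 CPM, with a 95% interval of its log2 fold change from -0.19 to 0.20. Its fitted value of 0.0047 was -0.27 when scaled to short neuronal genes, -0.11 without DMSO replicate 1 and -0.014 without topotecan replicate 1. Itgav, the alpha-V integrin, had a log2 fold change of -2.89 (SE 0.36). Kdr, a vascular growth factor receptor and endothelial marker, had 39 and 31 reads in DMSO against 8 and 8 in topotecan (-2.24, SE 0.42). Both of its topotecan libraries were under the count filter's cutoff, so it was tested only through DMSO, where it is higher. The only other tested endothelial marker, Esam, did not pass (0.24, edgeR adjusted p = 0.56). Igsf8, a partner of integrins, was higher by 0.58 (SE 0.16), a call lost without DMSO replicate 2 (0.35), without topotecan replicate 2 (0.49) and when scaled to short neuronal genes (0.32).

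Of 40 tested intracellular effectors 11 were lower, 8 were higher and 21 did not pass (median -0.05), shares of the list near those of all genes. Rnd2, a small GTPase of migrating cortical neurons that binds plexins, stood at 57.2 and 47.1 CPM in DMSO and 7.60 and 7.26 CPM in topotecan. Its log2 fold change was -2.81 (SE 0.14, edgeR adjusted p = 1.3e-09), the deepest fall on this list, and the gene spans 3.6 kb. Rras, a target of the plexin GTPase domain, had 20 and 25 reads in DMSO against 8 and 6 in topotecan (-1.81, SE 0.48). Its call was lost without DMSO replicate 2 (-1.52) and with DESeq2 (-1.83). Like Kdr, Rras passed the count filter only through its DMSO libraries, where it is higher. Sh3bp1, a Rac regulator that binds plexins, was at -1.11 (SE 0.41), a call lost without DMSO replicate 1 (-0.87), without topotecan replicate 2 (-0.82), with upper quartile scaling (-1.07) and with DESeq2 (-1.11).

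The 4 most abundant effectors were not lower, and 2 of them were called higher. Dpysl2 (CRMP2), the microtubule-binding mediator of Sema3a, stood at 769 and 771 CPM in DMSO and 758 and 815 CPM in topotecan (log2 fold change 0.03, 95% interval -0.13 to 0.19). It was -0.24 when scaled to short neuronal genes and -0.022 without topotecan replicate 2. Crmp1 went from 750 ± 9.96 to 840 ± 3.58 CPM (0.16, edgeR adjusted p = 0.082), passed with upper quartile scaling (0.20) and was at -0.11 when scaled to short neuronal genes. Dpysl4, of the same CRMP family, went from 374 ± 51.1 to 528 ± 18.1 CPM (0.50, edgeR adjusted p = 0.00068), and Cfl1, the actin-severing cofilin, from 2878 ± 423 to 3561 ± 36.3 CPM (0.31, edgeR adjusted p = 0.013; SD, n = 2 each). When scaled to short neuronal genes both calls were lost (0.23 and 0.045), and that of Cfl1 also without DMSO replicate 2 (0.16).

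**Figure D5:**
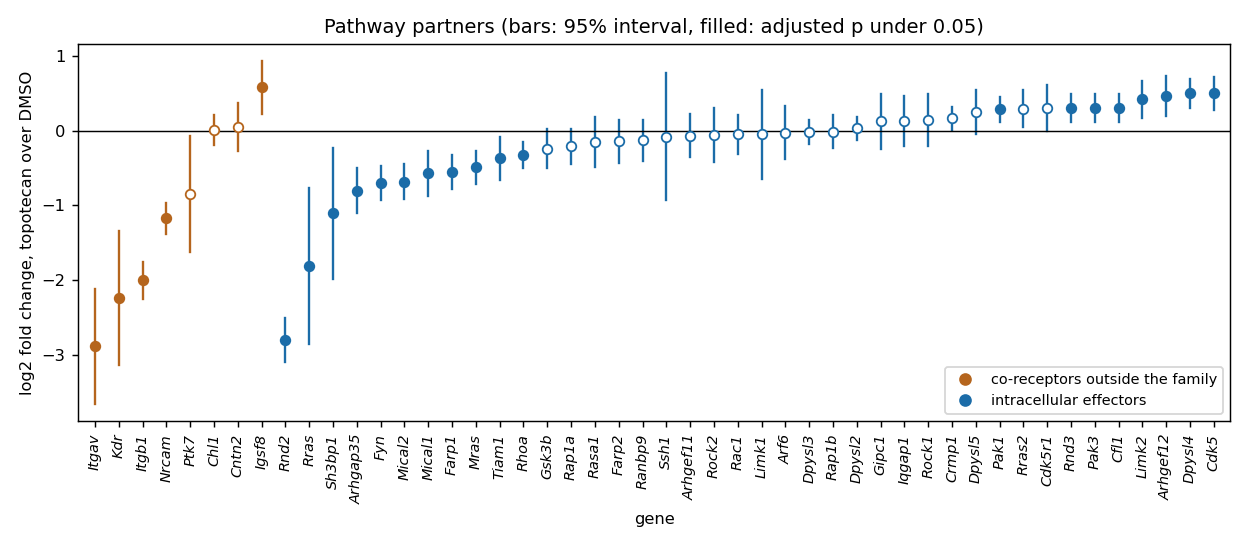
Log2 fold change with 95% intervals of the 8 tested co-receptors outside the family (brown) and the 40 tested intracellular effectors (blue), filled where the adjusted p was under 0.05. Itgav, Kdr, Itgb1 and Nrcam lie below -1, as do Rnd2, Rras and Sh3bp1. None of the 9 genes called higher kept its call when scaled to short neuronal genes. Under that scaling the higher calls over all genes went from 1970 to 337.

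Other guidance families in the same libraries differed in their counts. Of 17 tested Eph receptors and ephrins 6 were lower and 3 higher by edgeR. Of 11 tested Slits, Robos, netrins and netrin receptors 9 were lower by edgeR. None of the 11 was higher by edgeR, DESeq2 or limma-voom, also at an unadjusted p under 0.05. Among all genes 23.5% were lower and 16.2% higher by edgeR, shares that take no account of gene span. DESeq2 called 7 of the 11 lower, beside 2381 of 12162 genes in all. The difference between these families and the semaphorin system was not tested.

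The counts depended on how libraries were scaled. Under TMM scaling 8 of the 17 short neuronal genes used for scaling were higher and 2 lower, with a median log2 fold change of 0.24. Scaling to them therefore shifts fold changes down, so a call of a rise is lost more readily. Scaling to 17 neuronal genes of 1.77 to 47.7 kb moved the median over all genes by a log2 shift from -0.01 to -0.28, and the split of calls from 2854 lower and 1970 higher to 4311 lower and 337 higher. Under it 17 of the 29 genes were lower and 0 higher by edgeR, also at an unadjusted p under 0.05. DESeq2 with its own size factors called 9 lower and 0 higher, with 2 higher at an unadjusted p under 0.05. Among all 12162 genes DESeq2 called 2381 lower and 1706 higher.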

How the data were processed

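RNA from 4 libraries (2 DMSO, 2 topotecan) was analysed, grouped by the sample titles. The authors deposited whole-number gene counts, and per the submitters' processing notes STAR and edgeR were used. What each tool did, versions, genome build, annotation and any use of strand are not given in the sources, so overlapping genes may share reads. Per the labels' protocols a kit for small RNA was used. Of 22641 rows, 792 identifiers were repeated with the same counts and kept once, which left 21648 genes. Depth ran from 22957786 to 31181382 counts. Replicates differed beyond sampling noise (chi-square per degree of freedom 13.0 in DMSO and 9.34 in topotecan) and each was kept.

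Treatments were compared by the quasi-likelihood test of edgeR 4.0.16 in R 4.3.3, with treatment as the only term, TMM scaling and filterByExpr (minimum count 10, minimum total 15). It was fitted on the 12162 genes that passed, with Benjamini-Hochberg adjustment over all of them and a threshold of 0.05. Standard errors follow from the log2 fold change and its F value, and intervals use the test's degrees of freedom. The procedure was tested on simulated data. Alternatives were RLE and upper quartile scaling, scaling to 17 short neuronal genes, 2 other count filters, a replicate block, DESeq2 1.42.0, limma-voom (limma 3.58.1) and leaving out each library. Every member is described. Partner genes are named where they were called with a 2-fold or larger change, or were among the 4 most abundant of their list. Members and lists were chosen with earlier results of these data known. Gene spans and promoters are RefSeq's (GRCr8), matched by Entrez number, symbol or synonym for all 31 members (span) and 21 (promoter).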

Additional observations from a re-analysis of the deposited data

How the results depend on the processing

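Over the 12 alternatives the count of lower genes among the 29 stayed between 9 (DESeq2) and 17 (scaling to short neuronal genes), against 13. Of the 13 calls of a fall, 7 held under every alternative: Sema3d, Sema5a, Sema6a, Sema6d, Sema7a, Plxnb1 and Plxnb2. Neither rise did. The count of higher genes, 2, was 0 when scaled to short neuronal genes (0 also at an unadjusted p under 0.05). It was also 0 with DESeq2 (2 at an unadjusted p under 0.05). Over all 12162 genes the count of higher genes was 1970 by edgeR, 337 when scaled to short neuronal genes and 1706 with DESeq2. The member count was also smaller in some fits with 1 library left out, which keep 1 library in a group. Without topotecan replicate 1 and without topotecan replicate 2, fewer of all 12162 genes were called higher as well. Smaller counts of higher members or partner genes in those fits are therefore not particular to these lists. The count of higher partner genes, 9, was 0 when scaled to short neuronal genes (0 at an unadjusted p under 0.05) and ran from 4 to 11 when 1 library was left out, with 5 without topotecan replicate 1 and 4 without replicate 2. Scaled to short neuronal genes, log2 ratios of summed CPM were -0.81 for semaphorins, -0.58 for plexins, -0.78 for plexin domain containing genes and -0.22 for neuropilins. The cause was not tested.

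Direction changed for genes near 0. When scaled to short neuronal genes the log2 fold change was -0.26 for Nrp1, -0.050 for Plxnc1, -0.080 for Sema4b, -0.27 for Chl1, -0.11 for Crmp1 and -0.24 for Dpysl2. When 1 library was left out, log2 fold changes ran from -0.081 to 0.10 for Nrp1, from -0.69 to 0.089 for Plxdc1, from -0.0066 to 0.50 for Plxnc1, from -0.11 to 0.14 for Chl1, from -0.022 to 0.083 for Dpysl2, and from -0.22 to 0.015 for Sema3c. With the replicate block 13 members were lower and 2 higher, and 14 partner genes were lower and 9 higher. The replicate block changed no call of a member. Deviations of same-numbered libraries did not go together (r = -0.032 across genes), so the numbers were not taken as a pairing. Members with few counts, such as Sema5b, Sema6c and Plxdc1, have wide intervals, and Sema3b and Sema3g could not be tested at this depth.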
